A study of Mus musculus with 30 samples.

Results

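The genes described here are 10 nuclear genes that encode E1, E2 and E3-binding subunits of the pyruvate dehydrogenase (PDH) complex, its kinases and the catalytic subunits of its phosphatases, which switch it off and on, taken by symbol from left ventricular RNA sequencing of 30 mice. They are Pdha1, Pdhb, Dlat, Pdhx, Pdk1, Pdk2, Pdk3, Pdk4, Pdp1 and Pdp2, out of 49671 genes in the table of the peptide study and 55263 genes in the table of the antibody study. All mice were wild-type male C57BL6/J mice, without a transgene. In the peptide study, 7 mice were administered Aβ42, the recombinant human amyloid beta peptide, and 7 mice were administered ScrAβ42, a peptide of scrambled sequence, by daily intraperitoneal injection for 4 weeks. The sample labels give the age at the first injection as 12 weeks and the methods of the study as a range that ends there. The labels give the dose as 1 mg per day and the methods as 1 µg per day. In the antibody study, 8 mice received 3D6, an antibody that neutralises Aβ42, and 8 mice received an IgG2a control antibody at 0.75 mg/kg weekly for 4 months. The duration is not certain, because the methods describe echocardiography after 12 weeks of feeding and killing shortly after that. The methods state that all mice of the antibody study, assessed by echocardiography at 12 weeks of age, were then fed a high fat diet from 1 week later, whereas the deposited design states that they were given Aβ42, and the files do not resolve this difference. The comparisons ask whether raising or neutralising Aβ42 was accompanied by a change in the transcripts of this complex.

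The PDH complex commits pyruvate from glycolysis and lactate to oxidation in the mitochondrial matrix as acetyl-CoA. Pdha1 and Pdhb encode the alpha and beta subunits of the E1 decarboxylase, Dlat encodes the E2 acetyltransferase and Pdhx the protein that tethers the E3 component to the core. The PDH kinases phosphorylate E1 alpha and inactivate the complex, and the PDH phosphatases reverse this, so that in heart muscle the balance of the opposing enzymes sets how much glucose is burned relative to fat. Pdk4 is known as the isoform induced by fasting and fatty acids through PPAR and FOXO transcription factors.

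All 10 genes averaged 10 or more counts a heart in both studies and so were tested. Levels are given as CPM, the count scaled to the TMM-normalised size of its library. Libraries of the peptide study held 4478991 to 6015767 counts, and those of the antibody study 6397192 to 8310478. Genes of ventricular cardiomyocytes were abundant in every heart, with summed levels between 38535 and 82789 CPM for the 7 markers. Markers of atrial muscle were present at widely different levels in both studies. Their summed level had a median of 1154 CPM with Aβ42 (12.3 to 8387 CPM) and of 10.5 CPM with ScrAβ42 (3.81 to 3652 CPM). Named by their labels, the Aβ42 hearts Abeta42_3455, Abeta42_3457 and Abeta42_3458 and the ScrAβ42 heart ScrAbeta42_3448 had atrial marker scores between 0.97 and 1.53. Mice Abeta42_3457 and ScrAbeta42_3448 also had 12.9% and 13.8% of their counts from the mitochondrial genome, against 17.3% to 22.2% in the other 12 peptide hearts, and the TMM factors furthest from 1 (1.21 and 1.11). In the antibody study, the heart of control mouse 22 had the lowest such share, 26.0% against 28.8% to 37.9% in the other 15 hearts. The labels describe a pair of peptide cohorts, one killed after a glucose tolerance test that follows a fast and the other some days after echocardiography. They do not say which heart came from which. For these hearts the paper refers to the peptide experiment whose figure shows the tolerance tests. Its methods state that the mice of the antibody study were killed after a fast of some hours. The part of the fast in fasting-responsive genes such as Pdk4 was not tested, and p-values measure the spread between these mice. In such bulk samples, fewer cells of a type and less RNA per cell cannot be told apart.

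Per kilobase of transcript, Pdk4 was the most abundant of the 10 genes in the peptide study, at 678 ± 119 CPM per kb (SD, n = 14). Lengths were weighted by the share of each transcript in the antibody study. Pdha1 followed at 361 ± 48.4 CPM per kb, and Pdk4 exceeded Pdha1 in 14 of 14 hearts. Pdk2 and Pdhb came next at 244 ± 42.5 and 242 ± 49.3 CPM per kb, and did not differ beyond their spread, with Pdk2 above Pdhb in 9 of 14 hearts. Dlat (122 ± 21.3 CPM per kb), Pdhx (69.3 ± 10.1 CPM per kb) and Pdk1 (44.6 ± 6.99 CPM per kb) each exceeded the next gene in 14 of 14 hearts. The phosphatases were scarcer, with Pdp1 at 10.3 ± 1.04 CPM per kb and Pdp2 at 6.34 ± 1.72 CPM per kb, and Pdk3 was lowest at 2.20 ± 2.18 CPM per kb.

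The order in the antibody study was led by the E1 subunits. Pdha1 stood at 228 ± 49.4 CPM per kb and Pdhb at 221 ± 27.1 CPM per kb (SD, n = 16), with Pdha1 above Pdhb in 9 of 16 hearts. Pdk2 (158 ± 18.98 CPM per kb) and Pdk4 (152 ± 72.6 CPM per kb) were likewise not separated, with Pdk2 higher in 10 of 16 hearts. Below them lay Dlat (72.2 ± 13.8 CPM per kb), Pdhx (38.9 ± 7.05 CPM per kb), Pdk1 (26.7 ± 7.26 CPM per kb), Pdp1 (7.10 ± 1.47 CPM per kb), Pdp2 (4.97 ± 1.07 CPM per kb) and Pdk3 (0.80 ± 0.35 CPM per kb). Pdk4 exceeded Dlat in 14 of 16 hearts, and from Dlat downwards each gene exceeded the next in 16 of 16.

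**Figure D1:**
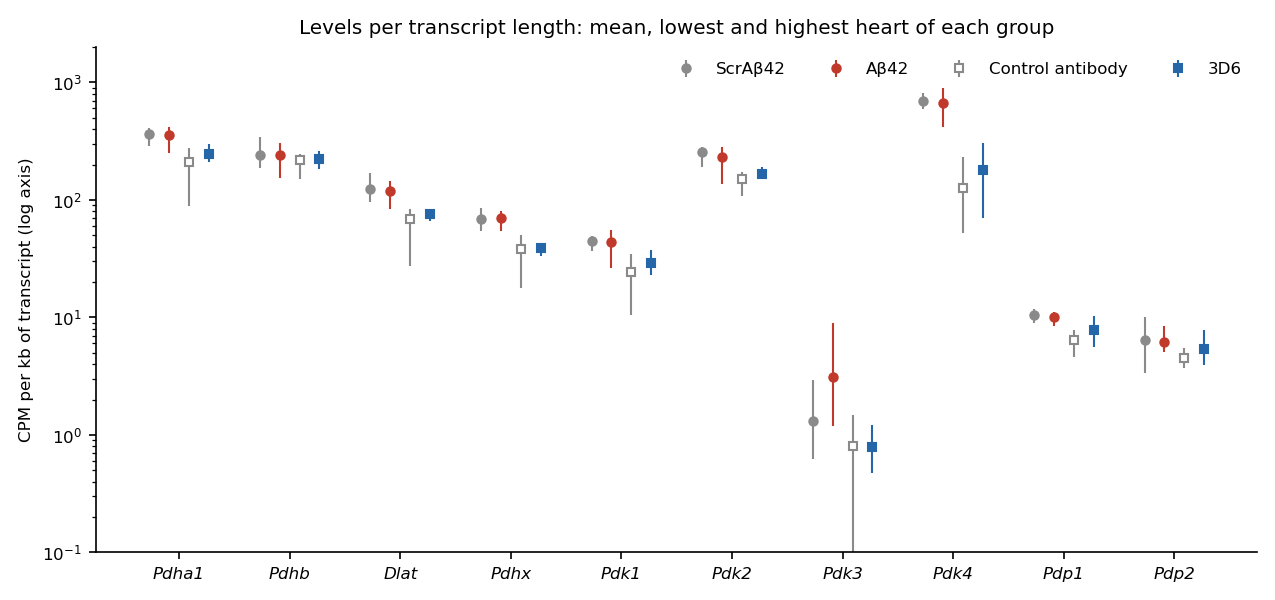
Mean level of each gene in CPM per kb of transcript on a log axis, with bars from the lowest to the highest heart, for ScrAβ42 and Aβ42 (7 hearts each) and control antibody and 3D6 (8 hearts each). Pdk4 leads in the peptide study at 678 CPM per kb over both groups, and Pdk3 is lowest in both studies. The control antibody bar of Pdk3 runs to the axis floor because 1 heart had no counts.

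The studies were normalised separately, so levels between them were set side by side only. Pdk4 made up 69.5% ± 3.07 of the summed per-kb level of the 4 kinases with ScrAβ42 and 70.1% ± 3.90 with Aβ42 (SD, n = 7 each). Its share was 39.8% ± 9.38 with the control antibody and 45.8% ± 9.77 with 3D6 (SD, n = 8 each), and single hearts ranged from 25.0% to 57.2% over both groups. The kinases together exceeded the phosphatases 58.4 ± 3.21 times with ScrAβ42 and 58.3 ± 12.5 times with Aβ42. In the antibody study this ratio was 27.3 ± 5.37 with the control antibody and 28.7 ± 5.49 with 3D6. These ratios are descriptions, without a test.

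Aβ42 administration was not accompanied by a change in the PDH subunits that passed the test. Pdha1 (ENSMUSG00000031299, minus strand of chromosome X of GRCm38, 160122209 to 160138413) overlaps Map3k15 on the opposite strand, and the library kit keeps strand. Its level ran from 822 to 1166 CPM with ScrAβ42 (median 1053) and from 705 to 1185 CPM with Aβ42 (median 1083). Both groups overlapped, and the lowest heart of all was mouse Abeta42_3457. Pdha1 had a log2 fold change of -0.033 (SE 0.12, 95% interval -0.28 to 0.21, adjusted p = 0.970, edgeR quasi-likelihood test with Benjamini-Hochberg adjustment). Pdhb (ENSMUSG00000021748, minus strand of chromosome 14, 8165996 to 8173025) had 281 to 522 CPM with ScrAβ42 (median 342) and 233 to 457 CPM with Aβ42 (median 391). Its log2 fold change was -0.010 (SE 0.15, 95% interval -0.34 to 0.32, adjusted p = 0.995).

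Dlat (ENSMUSG00000000168, minus strand of chromosome 9, 50634633 to 50659780) lay between 338 and 589 CPM with ScrAβ42 (median 415) and between 294 and 509 CPM with Aβ42 (median 437). The heart of mouse Abeta42_3457 was again the lowest, and the highest was mouse ScrAbeta42_3449. For Dlat the log2 fold change was -0.048 (SE 0.13, 95% interval -0.33 to 0.24, adjusted p = 0.965). For Pdhx (ENSMUSG00000010914, minus strand of chromosome 2, 103021075 to 103073513), levels were 109 to 173 CPM with ScrAβ42 (median 130.4) and 110.5 to 164 CPM with Aβ42 (median 147), with a log2 fold change of 0.046 (SE 0.11, adjusted p = 0.962). In this fit the intervals of the 4 subunits exclude a change of more than 0.34 on the log2 scale in either direction. The limit is for this fit only. With the atrial marker score in the model, Pdhb had a log2 fold change of 0.18 (edgeR unadjusted p = 0.246).

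Among the 10 genes, Pdk3 had the largest difference in the peptide study. Pdk3 (ENSMUSG00000035232, minus strand of chromosome X, 93764607 to 93832201) is better known from brain and testis than from heart. Its level was 1.31 to 6.18 CPM with ScrAβ42 (median 2.14) and 2.47 to 18.8 CPM with Aβ42 (median 3.55), from 6 to 137 counts per heart. All 7 Aβ42 hearts lay above the ScrAβ42 median, 2 of them above every ScrAβ42 heart, and the groups overlapped. Its log2 fold change was 1.23 (SE 0.48, 95% interval 0.21 to 2.25, unadjusted p = 0.0210), which did not pass the edgeR test after adjustment over all genes (adjusted p = 0.703). The exact permutation test of mean log2 CPM gave a difference of 0.92 with a two-sided p of 0.0577, not under 0.05 even before adjustment. By edgeR, Pdk3 was the only one of the 10 genes with an unadjusted p under 0.05, while 6.51% of the 11985 genes tested had one (3.6% higher and 2.91% lower with Aβ42), and 0% passed after adjustment. Without mouse Abeta42_3457 the log2 fold change of Pdk3 was 0.65 with an edgeR unadjusted p of 0.1005, and without mouse ScrAbeta42_3448 it was 1.58.

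Pdk3 and several cell type markers varied together from heart to heart. After group means were subtracted, its log2 CPM and the atrial marker score had a Pearson r of 0.79 (permutation p = 0.00147, adjusted p = 0.0208 over 20 relations) and a Spearman rho of 0.67 (permutation p = 0.0159, adjusted p = 0.159) over 14 hearts. Leaving out the 2 hearts farthest from the median of the first measure gave an r of 0.67. Of all 11985 genes 5% had an r of 0.75 or more with this score, and Pdk3 ranked 371. Pdha1 and Pdk2 each had an r of -0.76 with the score (ranks 11833 and 11817 of 11985), beyond the 5th percentile of -0.69, with a permutation adjusted p of 0.0208 by Pearson for each and of 0.204 and 0.0624 by Spearman. The r of Pdk3 with single markers was 0.53 to 0.78 for the 5 atrial, 0.75 to 0.88 for the 5 fibroblast and -0.90 to -0.62 for the 7 ventricular genes, while the 5th and 95th percentiles of its r over all genes were -0.82 and 0.82. With the atrial marker score in the edgeR model, the log2 fold change of Pdk3 with Aβ42 was 0.24 (unadjusted p = 0.523). With the mitochondrial share in its place it was 1.16 (unadjusted p = 0.00158, adjusted p = 0.214). The 5 genes with the pattern most like that of Pdk3 over these hearts were Rnase4 (r = 0.959), Serpine2 (r = 0.951), Csf1 (r = 0.947), Parva (r = 0.947) and Igfbp6 (r = 0.946). All 5 atrial markers were higher with Aβ42, Bmp10 with an unadjusted p under 0.05, as were 5 of 5 smooth muscle, 5 of 5 mesothelial and 4 of 4 tested adipocyte markers (Ucp1 and Plin1 with an unadjusted p under 0.05). In contrast, 5 of 7 ventricular, 5 of 5 red cell and 4 of 4 tested skeletal muscle markers were lower, 2 of 5 fibroblast and 2 of 5 endothelial markers were higher, and none passed after adjustment. The difference in Bmp10 rested mainly on mouse Abeta42_3455 at 1205 CPM, with the next Aβ42 heart at 62.3 CPM. Group medians of Bmp10 were 0.578 CPM with Aβ42 and 0.386 CPM with ScrAβ42. The summed level of Pdha2, Syt1 and Snap25, markers of testis and brain, had a median of 0.193 CPM with ScrAβ42 (highest 3.67) and of 1.38 CPM with Aβ42 (highest 22.7). The part of such tissues in the level of Pdk3 was not tested beyond the model with the atrial score.

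**Figure D2:**
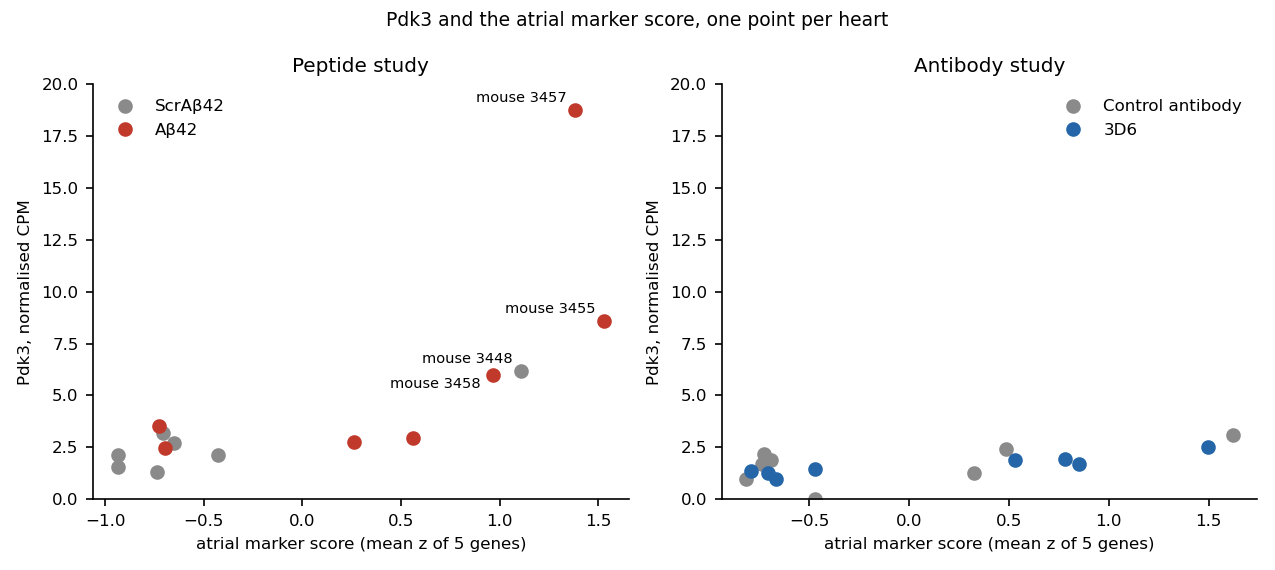
Pdk3 in normalised CPM against the atrial marker score, the mean z score of 5 atrial genes, with 1 point per heart in the peptide study (left) and the antibody study (right). The 4 labelled hearts, 3 with Aβ42 and 1 with ScrAβ42, have both the highest Pdk3 and scores of at least 0.97, while Pdk3 stays at or under 3.10 CPM in every heart of the antibody study.

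Pdk4 was the most abundant kinase transcript in both peptide groups. Pdk4 (ENSMUSG00000019577, minus strand of chromosome 6, 5483351 to 5496309) had 2043 to 2786 CPM with ScrAβ42 (median 2295) and 1412 to 3040 CPM with Aβ42 (median 2287). The Aβ42 group held both the lowest heart, mouse Abeta42_3457, and the highest, mouse Abeta42_3455. The log2 fold change was -0.055 (SE 0.14, 95% interval -0.36 to 0.25, edgeR adjusted p = 0.963). Pdk1 (ENSMUSG00000006494, plus strand of chromosome 2, 71873224 to 71903858), a kinase that responds to hypoxia in many cells, had 184 to 246 CPM with ScrAβ42 (median 242) and 131 to 276 CPM with Aβ42 (median 225), with a log2 fold change of -0.025 (SE 0.13, adjusted p = 0.982). Pdk2 (ENSMUSG00000038967, minus strand of chromosome 11, 95026258 to 95041354), the widely expressed isoform, overlaps the antisense gene Gm11513. Its levels were 429 to 632 CPM with ScrAβ42 (median 588) and 306 to 636 CPM with Aβ42 (median 549.9). The log2 fold change of Pdk2 was -0.13 (SE 0.14, 95% interval -0.43 to 0.17, edgeR adjusted p = 0.910). For both genes the lowest heart was mouse Abeta42_3457.

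The phosphatases did not pass the test either. Pdp1 (ENSMUSG00000049225, minus strand of chromosome 4, 11958184 to 11966452), the calcium-stimulated isoform, varied least of the 10 genes in the peptide study, with 24.7 to 32.6 CPM with ScrAβ42 (median 29.4) and 23.1 to 30.5 CPM with Aβ42 (median 28.3). Its log2 fold change was -0.066 (SE 0.08, 95% interval -0.24 to 0.11, edgeR adjusted p = 0.932). Pdp2 (ENSMUSG00000048371, plus strand of chromosome 8, 104591451 to 104599026) had 19.2 to 57.5 CPM with ScrAβ42 (median 35.7) and 28.7 to 48.0 CPM with Aβ42 (median 34.1), so that the Aβ42 hearts lay within the ScrAβ42 range. The log2 fold change of Pdp2 was -0.058 (SE 0.20, adjusted p = 0.970).

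Across the peptide study, 2 of the 10 genes were higher and 8 lower with Aβ42, and their median log2 fold change was -0.041 against 0.0016 for all genes tested, of which 50.5% were higher. This split rested on single hearts. Without mouse Abeta42_3457, 7 of 10 were higher, without mouse ScrAbeta42_3448 1 was, and 8 of 10 were once the atrial score entered the model. None of the 10 genes had groups of hearts that did not overlap (0 of 10), a pattern that 0.0918% of all genes showed.

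**Figure D3:**
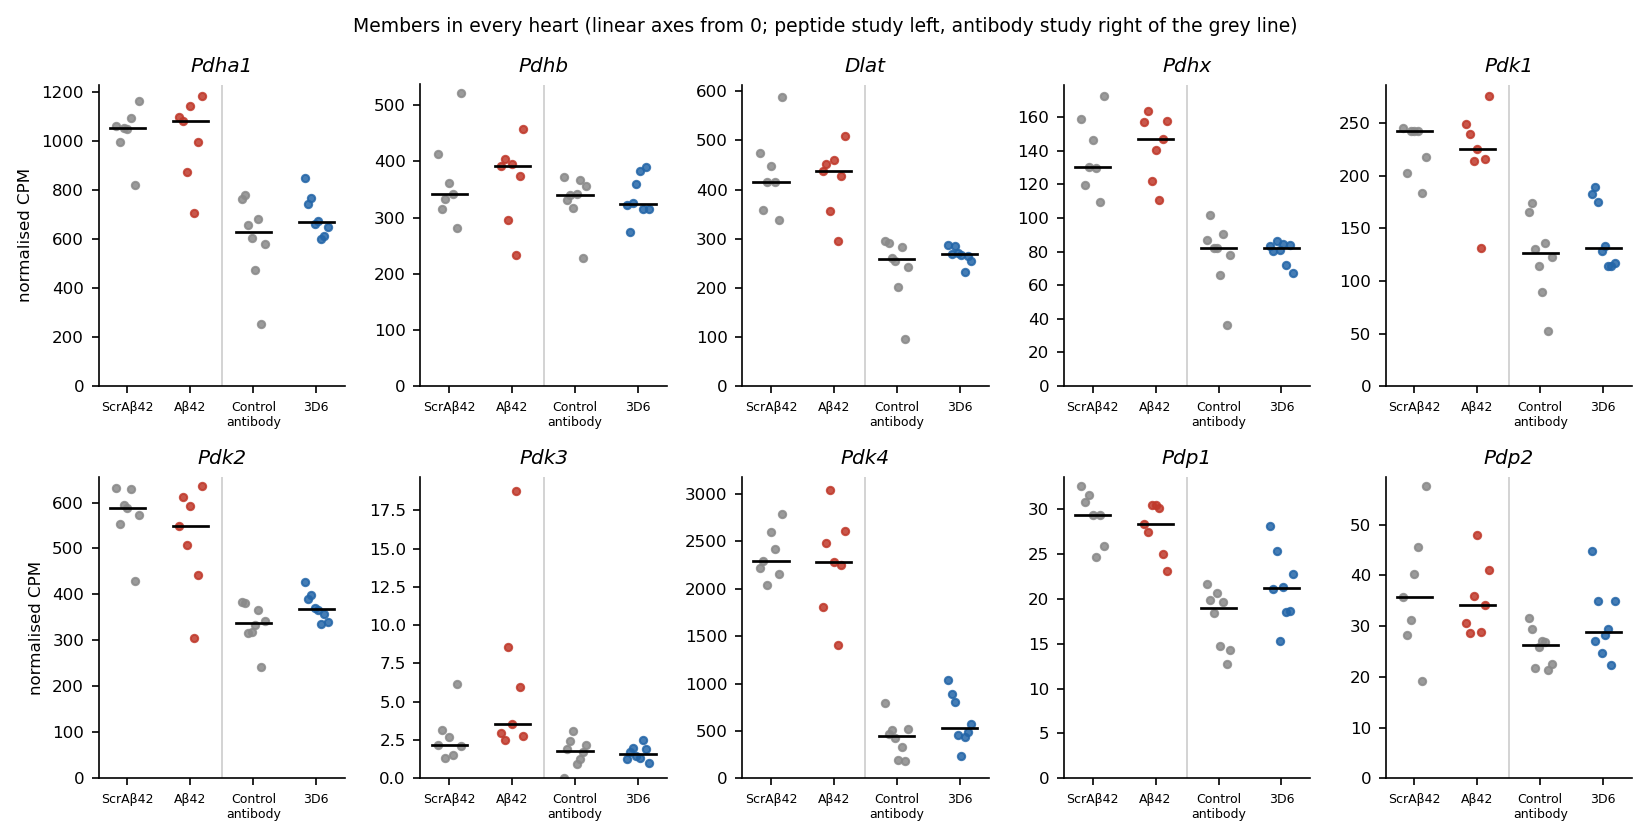
Normalised CPM of each gene in every heart on linear axes from 0, with ScrAβ42 and Aβ42 (7 hearts each) left of the grey line, control antibody and 3D6 (8 hearts each) right of it, and black bars for medians. Mouse Abeta42_3457 is the highest point for Pdk3 at 18.8 CPM and, within the peptide study, the lowest for Pdk1 and Pdk2, and the lowest control antibody point for Pdha1, Pdhb and Dlat is mouse 22.

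In the antibody study, 9 of the 10 genes were higher with 3D6 and 1 lower, with a median log2 fold change of 0.18 against -0.011 for all genes, of which 47.2% were higher. None passed the edgeR test, with 0 of 10 at an adjusted or an unadjusted p under 0.05. Over all 12146 genes tested, 3.66% were under that unadjusted threshold, 1.29% in the higher and 2.36% in the lower direction, and 0% passed after adjustment. The direction depended in part on control mouse 22, without which 7 of 10 genes were higher, and total count scaling also left 7 of 10 higher. Atrial marker levels differed widely within both antibody groups, with a median summed level of 98.6 CPM with 3D6 (1.05 to 669 CPM) and of 2.88 CPM with the control antibody (0.823 to 2778 CPM), the highest being control mouse 15. The fitted changes ran opposite to these medians, with 4 of 4 tested atrial markers lower with 3D6 (median log2 fold change -0.97). Of the markers of other cells, 5 of 5 fibroblast, 5 of 5 endothelial, 5 of 5 smooth muscle, 5 of 5 red cell and 2 of 2 tested mesothelial genes were lower with 3D6, as were 5 of 7 ventricular and 3 of 4 tested macrophage markers. Among these, Pecam1 (edgeR unadjusted p = 0.0139) and Wt1 (edgeR unadjusted p = 0.0112) were under the unadjusted threshold (adjusted p = 0.944 for both). Their part in the levels of the 10 genes was not tested.

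The E1 alpha subunit gene Pdha1 had 253 to 782 CPM with the control antibody (median 631) and 602 to 851 CPM with 3D6 (median 669). The groups overlapped except for 3 low control hearts, mice 22, 18 and 23, which lay under every 3D6 heart, and for the highest heart, 3D6 mouse 4. Pdha1 had a log2 fold change of 0.21 (SE 0.17, 95% interval -0.14 to 0.56, edgeR adjusted p = 0.944), and 0.11 without control mouse 22. Pdhb ranged from 229 to 372 CPM with the control antibody (median 341) and from 275 to 390.3 CPM with 3D6 (median 324). Its log2 fold change was 0.018 (SE 0.10, 95% interval -0.19 to 0.23, edgeR adjusted p = 0.983). Dlat had 96.5 to 295 CPM with the control antibody (median 258) and 232 to 288 CPM with 3D6 (median 268), a log2 fold change of 0.15 (SE 0.16), or 0.036 without control mouse 22. For Pdhx the values were 36.2 to 102 CPM with the control antibody (median 82.1) and 67.1 to 86.2 CPM with 3D6 (median 82.0), with a log2 fold change of 0.032 (SE 0.14).

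Pdk4 showed the largest difference of the 10 genes in the antibody study. It ran from 179.7 to 794 CPM with the control antibody (median 448) and from 238 to 1040.5 CPM with 3D6 (median 529). The 3 hearts of 3D6 mice 4, 7 and 12 lay above every control heart, while the other 5 3D6 hearts lay within the control range. Its log2 fold change was 0.52 (SE 0.30, 95% interval -0.10 to 1.15, unadjusted p = 0.0966, edgeR adjusted p = 0.944). Leaving out control mouse 3 raised it to 0.71 with an edgeR unadjusted p of 0.0247, and leaving out 3D6 mouse 4 gave 0.37 with an unadjusted p of 0.225. With the mitochondrial count share in the model it was 0.20 (edgeR unadjusted p = 0.371).

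Pdk2 had 243 to 384 CPM with the control antibody (median 338) and 335 to 427 CPM with 3D6 (median 369). Of the 8 3D6 hearts, 7 lay above the control median and 3 above every control heart, with a log2 fold change of 0.15 (SE 0.09, 95% interval -0.042 to 0.35, edgeR unadjusted p = 0.117). Pdk1 ranged from 52.6 to 174 CPM with the control antibody (median 127) and from 114 to 189 CPM with 3D6 (median 131), with a log2 fold change of 0.23 (SE 0.19, edgeR adjusted p = 0.944). Mice 4, 7 and 12 had the highest Pdk1 of the study, as they did for Pdk4. Pdk3 was near the detection limit, with 0 to 3.10 CPM with the control antibody and 0.992 to 2.53 CPM with 3D6, from 0 to 23 counts per heart, and no difference was detectable at this depth (log2 fold change -0.054, SE 0.36).

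The 2 phosphatase genes had the smallest edgeR p-values of the 10 genes in the antibody study, and by the two-sided exact permutation test Pdk2 (p = 0.0654) came before Pdp1 (p = 0.0752) and Pdp2 (p = 0.0957). Pdp1 had 12.7 to 21.7 CPM with the control antibody (median 19.03) and 15.3 to 28.2 CPM with 3D6 (median 21.2). Its log2 fold change was 0.27 (SE 0.13, 95% interval -0.0079 to 0.55, edgeR unadjusted p = 0.0562). Pdp2 had 21.2 to 31.5 CPM with the control antibody (median 26.4) and 22.4 to 44.8 CPM with 3D6 (median 28.8). The log2 fold change of Pdp2 was 0.26 (SE 0.13, 95% interval -0.013 to 0.53, edgeR unadjusted p = 0.0612). For each gene 3 3D6 hearts lay above every control heart and none below, and the adjusted p was 0.944 for both. Without 3D6 mouse 4 the log2 fold changes were 0.21 for Pdp1 and 0.16 for Pdp2 (edgeR unadjusted p of 0.131 and 0.174). With the mitochondrial share in the model both were 0.15 (edgeR unadjusted p of 0.182 and 0.201). Over all alternatives the log2 fold change ran from 0.15 to 0.33 for Pdp1 and from 0.15 to 0.31 for Pdp2. The lowest edgeR unadjusted p was 0.0198 for Pdp1 and 0.0230 for Pdp2, and neither gene passed after adjustment.

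**Figure D4:**
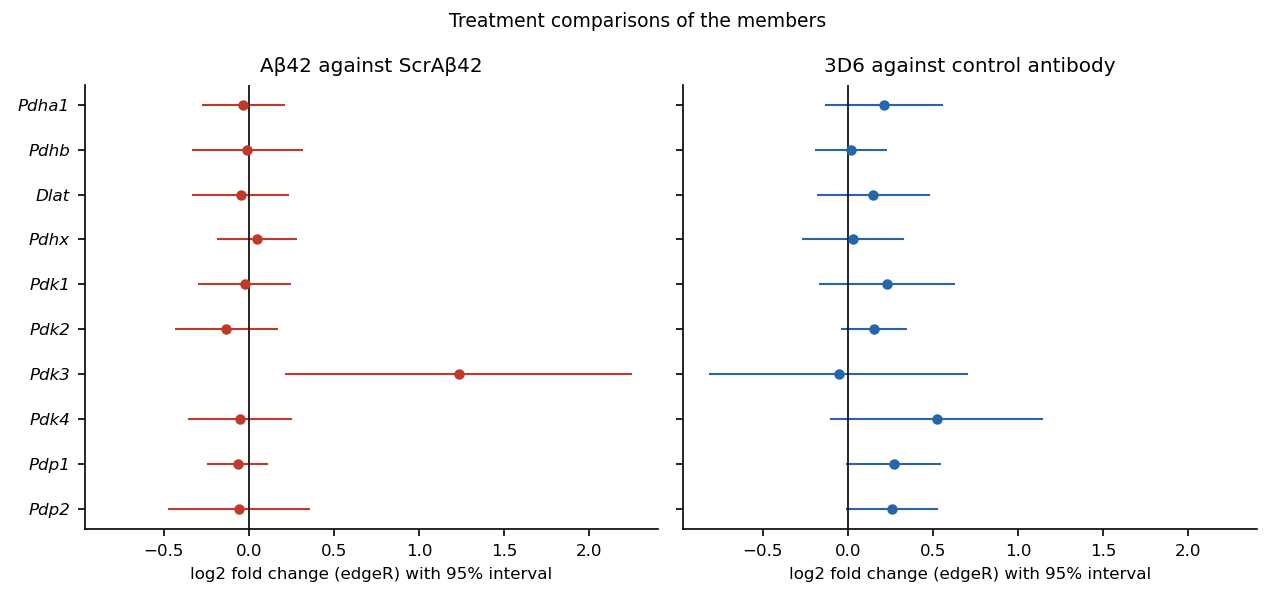
Log2 fold change of each gene with its 95% interval from edgeR, for Aβ42 against ScrAβ42 (left) and 3D6 against the control antibody (right). The interval of Pdk3 with Aβ42 (0.21 to 2.25) is the only one that leaves out 0, and its adjusted p is 0.703.

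Several of the 10 genes, and many others, varied with the mitochondrial genome share of the libraries in the antibody study. After group means were subtracted, Pdha1 had a Pearson r of 0.87 and a Spearman rho of 0.93 with that share over 16 hearts, and an r of 0.89 without the 2 hearts farthest from the median. For Pdk1 the r was 0.89, for Pdk2 0.85, for Dlat and Pdhx 0.76, and for Pdk4 and Pdp1 0.72. These 7 genes had a permutation adjusted p under the threshold by both measures, over 20 relations of the study. Over all 12146 genes the 95th percentile of r with the share was 0.85, above which lay Pdha1 (rank 458) and Pdk1 (rank 228), while Dlat, Pdhx, Pdk2, Pdk4 and Pdp1 ranked between 620 and 1709. Pdhb did not follow it, with an r of 0.35 (permutation p = 0.237), which was 0.61 within the control and -0.22 within the 3D6 hearts, nor did Pdk3 (r = -0.29). Pdp2 lay between, with an r of 0.60 (rank 2537) and a permutation adjusted p of 0.0185 by Pearson and 0.0672 by Spearman. In the peptide study 0 of the 10 genes passed by both measures. There the r with the share was 0.78 for Pdk2 (rank 188 of 11985 genes), 0.74 for Pdk1 (rank 376), 0.72 for Pdha1 (rank 528) and -0.72 for Pdk3, beyond the 5th and 95th percentiles over all genes of -0.69 and 0.70. Their permutation adjusted p was 0.0208 to 0.0246 by Pearson and 0.204 to 0.292 by Spearman, and without the 2 farthest hearts the r was 0.28, 0.19, 0.10 and -0.19. With the share in the edgeR model, the log2 fold changes with 3D6 were 0.049 for Pdha1, 0.026 for Pdk1 and 0.067 for Pdk2. The mean share was 33.7 ± 2.19% with 3D6 against 31.7 ± 3.72% with the control antibody (SD, n = 8 each), without a test.

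**Figure D5:**
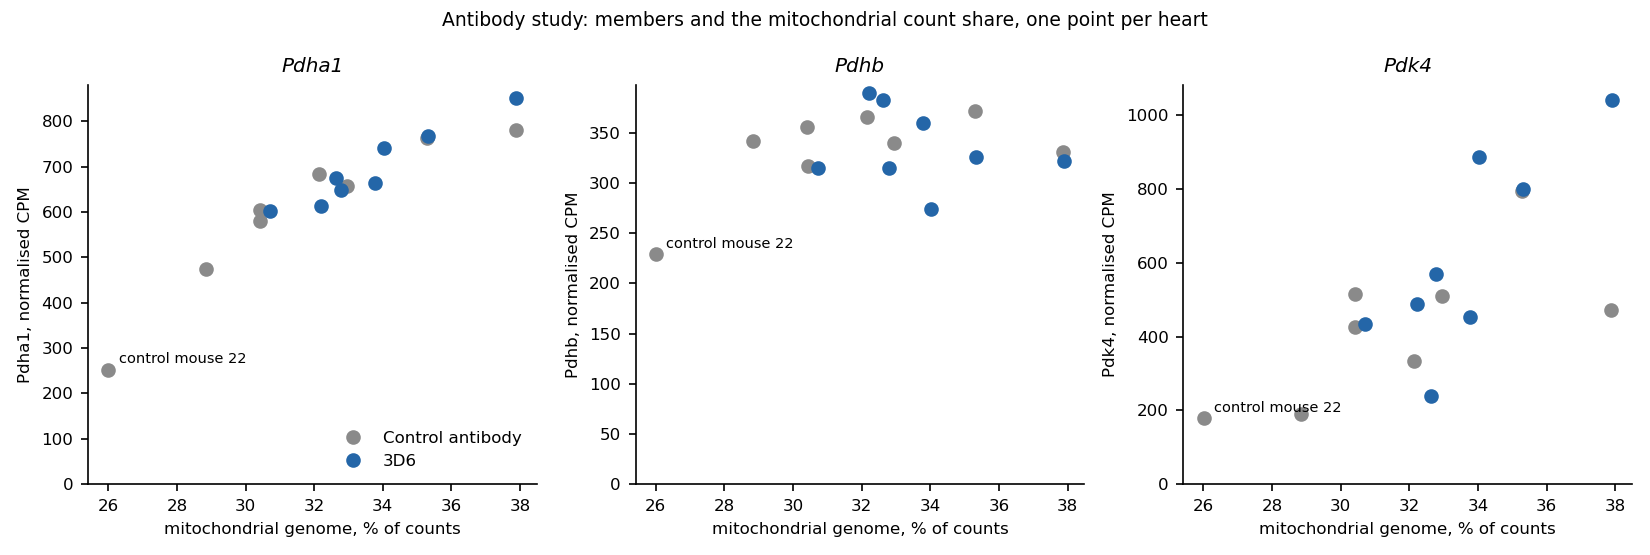
Pdha1, Pdhb and Pdk4 in normalised CPM against the percent of counts from the mitochondrial genome, 1 point per heart of the antibody study. Pdha1 is higher where the share is higher (r = 0.87), Pdhb is flat apart from control mouse 22 at 229 CPM, and Pdk4 is spread between 179.7 and 1040.5 CPM.

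The core subunit genes varied together in the peptide study. Promoters of the pair with the highest r are printed below as a description, and their part in this variation was not tested. Pdhb and Dlat had a Pearson r of 0.988 and a Spearman rho of 0.97 over 14 hearts after group means were subtracted (permutation p = 1e-05 for each, the smallest that 100000 permutations can give, and adjusted p of 0.000225 and 0.00045 over 45 pairs). Without the 2 hearts farthest from the median the r was 0.975. Of the 11984 other genes tested, Dlat was the gene most like Pdhb and Pdhb ranked 3 from the top for Dlat, while the 95th percentile of r with Pdhb over all genes was 0.84. Pdhb also ranked 7 and Dlat 11 among genes most like Pdhx. In the antibody study Dlat and Pdhx had an r of 0.973 (rho = 0.90, permutation adjusted p of 0.00045 and 0.00247), with Dlat ranked 3 of 12145 genes for Pdhx. It was 0.91 without the 2 farthest hearts, 0.99 within the control and 0.75 within the 3D6 group. Without control mouse 22 the r was 0.87, Dlat ranked 13 for Pdhx, and Pdhx moved from rank 16 to rank 54 for Dlat. Pdhb had an r of 0.727 with Dlat over 16 hearts that was 0.25 without the 2 farthest hearts and that was 0.92 within the control and 0.078 within the 3D6 group.

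The RefSeq promoters of Pdhb and Dlat (GRCm38.p6) are printed 5′ to 3′ from 250 to 61 bases before the start, with capitals for the letters CCAAT and GGGCGG on either strand. The windows of Pdk4 and Pdk3, the kinase genes with the widest spread between hearts, follow for comparison.
Pdhb, chr14:8173053-8173242, minus strand: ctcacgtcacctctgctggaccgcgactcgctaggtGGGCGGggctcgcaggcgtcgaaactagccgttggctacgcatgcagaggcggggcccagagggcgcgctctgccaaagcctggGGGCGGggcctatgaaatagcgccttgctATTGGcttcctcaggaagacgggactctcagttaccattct
Dlat, chr9:50659841-50660030, minus strand: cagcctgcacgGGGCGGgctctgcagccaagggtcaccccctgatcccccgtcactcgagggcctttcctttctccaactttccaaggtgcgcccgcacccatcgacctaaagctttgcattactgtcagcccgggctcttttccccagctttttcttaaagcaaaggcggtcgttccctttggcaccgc
Pdk4, chr6:5496339-5496528, minus strand: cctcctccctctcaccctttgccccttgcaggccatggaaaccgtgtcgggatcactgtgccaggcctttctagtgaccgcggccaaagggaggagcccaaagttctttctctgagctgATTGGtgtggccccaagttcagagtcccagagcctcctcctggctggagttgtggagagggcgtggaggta
Pdk3, chrX:93832211-93832400, minus strand: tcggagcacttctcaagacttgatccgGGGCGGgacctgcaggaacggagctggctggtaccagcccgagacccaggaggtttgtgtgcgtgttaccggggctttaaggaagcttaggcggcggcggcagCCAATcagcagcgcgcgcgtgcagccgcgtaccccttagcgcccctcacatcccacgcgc
Over all 32851 RefSeq windows of this length, 26.7% hold CCAAT or its complement ATTGG and 22.8% hold GGGCGG or CCGCCC. Of the 9 genes with a window, 5 hold the first motif (Pdhb, Pdk2, Pdk3, Pdk4 and Pdp2) and 5 the second (Dlat, Pdhb, Pdhx, Pdk3 and Pdp2). These are counts of genes, which have 11 windows in all, and are not directly comparable with shares of windows. G and C made up 57.9% to 65.8% of these windows, except 1 of Pdk1 at 42.6%, against a median of 51.6% over all windows. The part of this content in the matches was not tested. The letters AAGGTCA of the oestrogen-related receptor half-site and GTAAACA of FOXO factors, found in 3.21% and 2.49% of all windows, are on neither strand of any window of the 9 genes, and neither is TATAAA, which 8.73% hold. At such shares few matches would be expected in 11 windows, so no conclusion is drawn from their absence. The windows stop 61 bases before the start, and bases nearer to it or farther than 250 were not searched. A match is a description of the letters and not evidence of binding.

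Pdk3 ran against Pdk1, Pdk2 and the 4 subunits in the peptide study. Its r was -0.93 with Pdha1, -0.91 with Pdk2 and -0.90 with Pdk1 over 14 hearts, with permutation p-values of 0.000180, 0.000490 and 0.000110 and adjusted p of 0.00101, 0.00200 and 0.000707. Without the 2 farthest hearts these were -0.78, -0.73 and -0.71. In all, 23 of the 45 pairs passed by both measures, and the 6 negative ones each included Pdk3. Such values were common, since 24.3% of the r between any of the 10 genes and any other gene tested were at least as large in size as the smallest of these (0.63), and 11 of the 23 pairs lay beyond the 5th or 95th percentile for both genes. Pdk3 with Pdhb, Dlat and Pdhx (r between -0.76 and -0.74) lay inside these limits for Pdk3. For these 3 subunits the r with Pdk3 was -0.44, -0.52 and -0.49 within the ScrAβ42 group. It was -0.96, -0.94 and -0.95 within the Aβ42 group, and -0.74, -0.76 and -0.45 without the 2 farthest hearts. Pdk1 and Pdk2 had an r of 0.937 in the peptide study, which was 0.73 without the 2 farthest hearts and 0.83 without mouse Abeta42_3457. Their r was 0.919 in the antibody study, or 0.80 without the 2 farthest hearts. Without control mouse 22 it was 0.82, under the 95th percentile of 0.866 for Pdk1, and Pdk2 moved from rank 382 to rank 947 for Pdk1. For Pdk2 the same r stayed above its 95th percentile of 0.71, and Pdk1 moved from rank 44 to rank 94 of 12145. The phosphatases Pdp1 and Pdp2 had an r of 0.77 (rho = 0.78, permutation adjusted p of 0.00261 and 0.00356) in the antibody study and of -0.38 (permutation adjusted p = 0.225) in the peptide study, and whether these differ was not tested. Of the antibody study pairs 19 of 45 passed, all positive, of which 8 lay beyond the 95th percentile for both genes. Over all genes tested 27.9% of the r with any of the 10 were as large in size as the smallest of these (0.59).

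In the peptide study none of the pairs of Pdk4 with the other 9 genes passed by both measures, and the genes most like Pdk4 were Gpatch4 (r = 0.901), Usp39 (r = 0.878), Arl6ip4 (r = 0.873), Pdcd5 (r = 0.859) and Mark3 (r = 0.855) over 14 hearts. In the antibody study the pairs of Pdk4 with Pdha1, Dlat, Pdk1, Pdk2 and Pdp1 passed (r between 0.61 and 0.77), and the genes most like it were Zfp148 (r = 0.943), Pank1 (r = 0.923), Lman2 (r = 0.909), Herc4 (r = 0.908) and Arel1 (r = 0.905) over 16 hearts. For Pdk3 they were Ache (r = 0.832), Tmem119 (r = 0.826), Egr3 (r = 0.786), Rbm22 (r = 0.786) and Rbms3 (r = 0.780) in the antibody study, at the counts near 0 given above.

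Estimated counts per transcript, available for the antibody study, showed 1 dominant coding transcript for most of the genes. Of 46 transcripts of the 10 genes in the table, 18 averaged 10 or more counts a heart and were tested, and 0 of these had an edgeR unadjusted p under 0.05, against 2.4% of the 20729 transcripts tested. Pdha1-201, Pdk1-201, Pdk2-201, Pdk4-201 and Pdp2-201 each held over 99% of the counts of their gene. Pdk4-201 had 178 to 795 CPM with the control antibody and 236 to 1045 CPM with 3D6 (log2 fold change 0.52, SE 0.33). Pdp1 alone was split among 6 coding transcripts, 5 of them tested, the largest of which, Pdp1-203, held 29.98% of its counts and ran from 3.97 to 7.82 CPM with the control antibody and from 3.86 to 7.88 CPM with 3D6. The other 4 tested were at 0 in some hearts and not in others, as was Pdp1-202 (0 to 16.9 CPM), and no level is read from them. A second transcript of Pdhx, Pdhx-203, held 8.36% of its counts, and the retained-intron transcript Pdhb-204 0.983% of those of Pdhb.

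Genes around the complex were counted in lists. Of 16 tested genes for the E3 component, lipoylation, cofactors and PDH modification, 7 were higher and 9 lower with Aβ42, and of 15 tested in the antibody study 8 were higher and 7 lower with 3D6, with 0 at an unadjusted p under 0.05 in both. Dld, the shared E3 subunit, had 481.6 ± 74.6 CPM with ScrAβ42 and 480.8 ± 99.1 CPM with Aβ42 (log2 fold change -0.0024, SE 0.14). It had 227 ± 55.9 CPM with the control antibody and 253 ± 19.1 CPM with 3D6 (log2 fold change 0.16, SE 0.15). Pdpr, the regulatory subunit of the phosphatase, was chosen after its values were seen because of its spread. It ranged from 6.70 to 66.8 CPM with the control antibody and from 17.4 to 77.4 CPM with 3D6, and its r with Pdk4 over the 16 hearts was 0.84, rank 77 of 12145 genes. In the peptide study that r was 0.35, rank 2784 of 11984.

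Genes that supply pyruvate or send it elsewhere numbered 16, of which 4 were higher and 12 lower with Aβ42, and 11 higher and 5 lower with 3D6, again with 0 at an unadjusted p under 0.05. Of the 8 genes of the sister 2-oxoacid dehydrogenases with their kinase and phosphatase, 4 were higher with Aβ42 and 8 with 3D6 (median log2 fold change 0.097), without any at an unadjusted p under 0.05. Of the known regulators of the kinase genes 4 of 13 were higher with Aβ42 and 10 of 13 with 3D6. HIF targets were higher in 4 of 8 with Aβ42 and 3 of 8 with 3D6. These counts are set against 50.5% and 47.2% of all genes higher.

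The 18 PPAR and fasting targets, to which Pdk4 is related by regulation, included 7 higher and 11 lower with Aβ42 and 18 higher with 3D6. In the same comparison the 5 fibroblast, 5 endothelial and 5 smooth muscle markers were all lower with 3D6, and their part in these counts was not tested. With 3D6, 4 of the 18 had an edgeR unadjusted p under 0.05 in the higher direction, against 1.29% of all genes, and none an adjusted one (adjusted p = 0.944 for each). Acot1, a fatty acyl-CoA thioesterase, had 26.4 ± 5.47 CPM with the control antibody and 35.6 ± 10.3 CPM with 3D6 (log2 fold change 0.43, SE 0.16, unadjusted p = 0.0137). Ucp3, an uncoupling protein homologue, had 75.4 ± 17.2 and 99.6 ± 34.6 CPM (log2 fold change 0.40, SE 0.19). Ehhadh of peroxisomal beta-oxidation had 10.6 ± 2.10 and 12.9 ± 2.25 CPM (log2 fold change 0.29, SE 0.13). The number of these targets higher with 3D6 was 15 with total count scaling, 18 with the mitochondrial share as a covariate, and 15 to 18 with any 1 heart left out. With Aβ42 it was 15 without mouse Abeta42_3457 and 17 in the model that holds the atrial score.

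Of 4 glucocorticoid targets tested, 3 were higher and 1 lower with Aβ42, and 2 had an unadjusted p under 0.05. Over all genes 50.5% were higher and 6.51% were under that threshold. Fkbp5, a chaperone of the receptor, had 145 ± 28.0 CPM with ScrAβ42 and 174 ± 19.5 CPM with Aβ42 (log2 fold change 0.26, SE 0.11, edgeR unadjusted p = 0.0387, adjusted p = 0.742). Zbtb16 had 324 ± 45.9 CPM with ScrAβ42 and 257 ± 26.6 CPM with Aβ42 (log2 fold change -0.33, SE 0.097, edgeR unadjusted p = 0.00330, adjusted p = 0.641). With 3D6, the same 4 genes had no unadjusted p under 0.05.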

How the data were processed

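RNA from the left ventricle of 30 mice was sequenced with a stranded kit and quantified by the authors with Salmon against the mouse transcriptome (GRCm38). The deposited peptide table holds whole-number counts per gene. The deposited antibody table holds estimated counts per transcript, which were summed to genes by GENCODE and rounded. Symbols were found for 99.5% of genes in the peptide table and for 99.2% of transcripts in the antibody table, and unlisted transcripts held 0.381% of counts. The peptide table has 1 count column that matches no labelled sample, which was not used here. Columns were matched to mice by group prefix and mouse number. No replicate pair agreed within sampling noise (lowest chi-square per degree of freedom 3.47).

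Each study was fitted separately with edgeR 4.0.16 (R 4.3.3), TMM normalisation and the quasi-likelihood test, two-sided, over genes that averaged 10 or more counts a heart, with Benjamini-Hochberg adjustment over all genes and a threshold of 0.05. Transcripts were fitted in the same way. Log2 CPM used a prior count of 2. The atrial marker score is the mean z score within a study of log2(CPM + 0.5) of Sln, Myl7, Myl4, Bmp10 and Mybphl. Correlations used log2 CPM after subtraction of group means, with 100000 permutations within groups (numpy 2.4.6, scipy 1.17.1), adjusted over 45 pairs or 20 relations a study, and were repeated without the 2 hearts farthest from the median of the first gene.

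The 10 genes and the lists were chosen with earlier results of these data known. Named beside them are pathway list genes with an unadjusted p under 0.05, of which 1 is not reported here, and the 5 genes most like Pdk4 and Pdk3. Pdpr was added after its values were seen. Alternatives were other normalisations (RLE, total count, without mitochondrial genes), other filters, DESeq2 1.42.0, an exact permutation test, the covariates and leaving out each heart. The counts of genes higher were added as results after seeing the data. On simulated data with 200 genes changed by 1 on the log2 scale, the test recovered 76% of them in the peptide design (11895 genes), 88.5% in the antibody design (12066 genes) and 32.5% of transcripts (19627 transcripts), with 11, 8 and 1 false calls. The simulation drew each gene independently, without the differences in tissue content between hearts. Smaller changes were not simulated, so it gives no recovery for changes as small as most of those of the 10 genes.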

Additional observations from a re-analysis of the deposited data

Results flagged for a closer look

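In 7 of the 40 sets of hearts examined, each 1 gene in 1 group, 1 heart lay far from the others by Dixon's test at the 95% level. Chance flags about 5% of such sets, and sets of different genes share their hearts. Mouse Abeta42_3457 had 131.1 CPM of Pdk1, with the nearest heart at 213.8, and 18.75 CPM of Pdk3, with the nearest at 8.57. Mouse ScrAbeta42_3448 had 429.2 CPM of Pdk2, with the nearest at 554.0, and 6.175 CPM of Pdk3, with the nearest at 3.17. Control antibody mouse 22 had 228.9 CPM of Pdhb, 96.54 CPM of Dlat and 242.6 CPM of Pdk2, with the nearest hearts at 317.0, 201.3 and 317.1 CPM. The 3 hearts are those with low mitochondrial shares of counts, at 12.9%, 13.8% and 26.0%, and the part of this share in the outlying values was not tested.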

How the results depend on the processing

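With RLE size factors or without mitochondrial genes, 28 of 28 values kept their direction and side of the threshold. Total count scaling turned Pdhb to 0.0085 with Aβ42 and, with 3D6, Pdhb to -0.023, Pdhx to -0.0018 and the transcripts Pdhb-201 to -0.023, Pdhb-204 to -0.027 and Pdhx-201 to -0.020 (log2 fold changes). The atrial score as a covariate turned 6 genes with Aβ42, Pdha1 to 0.15, Pdhb to 0.18, Dlat to 0.12, Pdk1 to 0.14, Pdk2 to 0.10 and Pdp2 to 0.18, left 0 of 10 genes at an unadjusted edgeR p under 0.05 and made 8 of 10 genes and 17 PPAR targets higher. The mitochondrial share turned Pdhb to -0.016, Pdhx to -0.085 and Pdk3 to 0.043 with 3D6, and the exact permutation test gave Pdk3 0.19. DESeq2 called 12 genes in the peptide study, none of the 10. A minimum of 10 counts in every heart dropped Pdk3, leaving 0 genes at an unadjusted edgeR p under 0.05 and 1 higher with Aβ42, and with no filter 2 genes had an unadjusted edgeR p under 0.05 with 3D6. The cause was not tested for these.

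With each heart left out in turn, genes called with Aβ42 ran from 0 to 3, members at an unadjusted edgeR p under 0.05 from 0 to 1 with Aβ42 and 0 to 3 with 3D6, genes of the 10 higher from 1 to 7 and 7 to 10, and PPAR targets higher from 5 to 15 and 15 to 18. With Aβ42 the log2 fold change ran from -0.083 to 0.038 for Pdha1, -0.073 to 0.096 for Pdhb, -0.10 to 0.040 for Dlat, -0.0040 to 0.11 for Pdhx, -0.085 to 0.070 for Pdk1, -0.14 to 0.034 for Pdk4 and -0.17 to 0.085 for Pdp2. With 3D6 it ran from -0.039 to 0.058 for Pdhb, -0.068 to 0.097 for Pdhx, -0.24 to 0.13 for Pdk3, -0.038 to 0.060 for Pdhb-201, -0.033 to 0.21 for Pdhb-204, -0.081 to 0.19 for Pdhb-206, -0.075 to 0.071 for Pdhx-201, -0.22 to 0.17 for Pdk3-201 and -0.095 to 0.99 for Pdp1-201. The depth limits Pdk3, with 0 to 23 counts per heart in the antibody study. No paired analysis was possible because the mouse numbers are not shared between groups.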
